A study of Gallus gallus with 48 samples.

Results

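The genes of the cytosolic ribosomal proteins were followed across every treatment of an experiment on cultured chicken pituitary cells. They were taken by symbol, as all genes named RPL or RPS with a number, together with RPLP0, RPLP1 and RPLP2, and without the kinases and binding proteins that share the RPS prefix. This gave 46 of the 15027 features on the array, 30 of the large and 16 of the small subunit, measured by 77 probes. RPSA and RPS27A, which belong to the same family, were not among the named probes used here. A value on at least 3 of 4 arrays in every group was required, and 43 of the 46 genes met this (28 large, 15 small subunit). RPL14, which had values on 42 arrays, and RPL27 and RPS15, which had a value on 1 array each, were left out of the tests. Genes entered by name and not by measured value, and the family itself was taken up with earlier results of these data known.

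Cytosolic ribosomal proteins are assembled with ribosomal RNA in the nucleolus into a large subunit, which forms peptide bonds, and a small subunit, which decodes the messenger RNA. Their messenger RNAs are abundant, are kept at similar levels to one another in most tissues and begin with a 5′ terminal oligopyrimidine (TOP) tract, through which mTOR signalling sets their translation. Cycloheximide binds the large subunit and stops elongation, and glucocorticoids such as corticosterone act mainly on transcription through a nuclear receptor.

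The cells were dispersed from anterior pituitary glands at embryonic day 11, attached for 1 h and kept without serum but with insulin and transferrin. The design set cells that first received 1.5 h of cycloheximide (CHX, 10 micrograms per ml) against cells that did not. Each arm had 6 durations of corticosterone (CORT, 1e-09 M), namely none (0 h) and then 1.5 h, 3 h, 6 h, 12 h and 24 h. The 12 groups are called CHX alone and CORT 1.5 h to 24 h after CHX in the first arm, and untreated and CORT 1.5 h to 24 h in the other, with 4 arrays in each and 48 in all. The design text calls the samples biological replicates without naming separate dispersions or animals, so p-values reflect only how far these samples differ, which may in part be technical. Duration of CORT and time in culture cannot be told apart, because the 0 h groups alone lacked CORT, and the labels do not say whether CHX was washed out.

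Each array gave a log2 ratio of 1 sample to a pool of all 48, so a value has meaning within a gene and gives no level between genes. The protocols of the untreated samples describe the splitting of the pool otherwise, and whether their pool differed was not resolved. Which dye stands on top of the ratio is not given. Sample over pool is the likely reading, because the glucocorticoid target FKBP5 had differences above 0 in all 10 comparisons with CORT (0.62 to 1.82). With the opposite reading every direction below would turn. Array medians lay between -0.04 and 0.05, so that a gene is high or low relative to the other features of its array. Array pairs correlated between -0.76 and 0.87, and the leading axis of the within-group residuals, taken over features other than these genes, held 51.4% of their sum of squares. Ratios to a pool give no absolute level, so the labelled cell type could not be checked by presence of its markers. Of the pituitary markers listed, 11 were measured, among them GH, PRL, POMC, TSHB and FSHB.

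The labels number the 4 replicates of each group, and the level of these genes went in part with that number. The mean of the 43 genes was -0.19 ± 0.10 on the 12 arrays numbered 1, 0.04 ± 0.23 on those numbered 2, -0.03 ± 0.22 on those numbered 3 and 0.25 ± 0.16 on those numbered 4 (SD, n = 12 each). All 12 arrays numbered 1 lay below 0 for this mean, between -0.39 and -0.03. Those numbered 4 lay between -0.12 and 0.43. Numbers 2 and 3 spread more widely, from -0.41 to 0.31 and from -0.31 to 0.40. The lowest value of number 4 came from CORT 24 h after CHX, where all 4 arrays were negative.

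**Figure D1:**
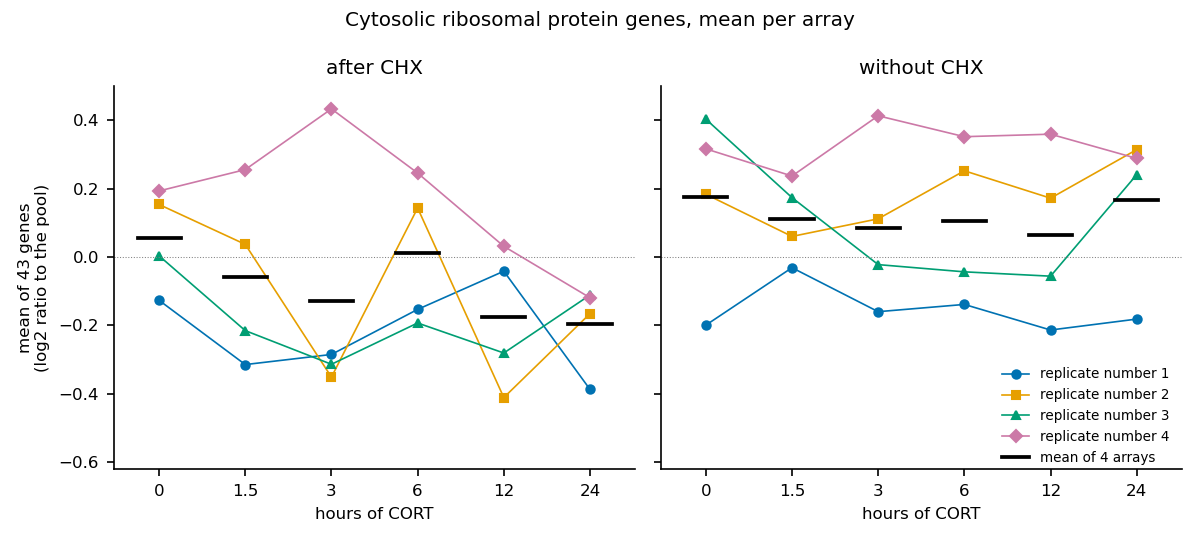
Mean log2 ratio to the pool of the 43 tested genes on each of 48 arrays, by hours of CORT, after CHX (left) and without CHX (right). Coloured lines join arrays of equal replicate number, which are not known to be one culture, and black bars are means of 4 arrays. Number 1 averaged -0.19 and number 4 averaged 0.25.

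The genes moved together across arrays. Over 48 arrays the 903 pairs among the 43 genes had a median Pearson correlation of 0.46, with 88.2% of pairs above 0, against a median of 0.00 over pairs of all complete features. The median was 0.49 after group means were removed and 0.32 after group and replicate number were both removed. These correlations are descriptions, since pairs share arrays, hybridisation and the pool.

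RPS10, a protein of the small-subunit beak, followed the mean of the other genes most closely (r = 0.95). RPL17, which lines the exit of the peptide tunnel, and RPLP2, an acidic protein of the stalk that recruits translation factors, came next (r = 0.94 and 0.93). The closest pair was RPS10 and RPS14 (r = 0.93). At the other end, RPL32, a large-subunit protein measured by 1 spot, ran against the rest (r = -0.52). RPL30 (r = -0.38) and RPS20 (r = 0.06) came next, and both are averages of spots that differ. The RPL30 spot that passed the filter correlated with the other genes at 0.51, and a spot with values on 43 arrays, which did not pass, at -0.69. The RPS20 spots, which both passed, correlated at 0.74 and -0.69. The mean of the genes itself correlated with the leading axis of the array spread at 0.79, and the median gene at 0.60.

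**Figure D2:**
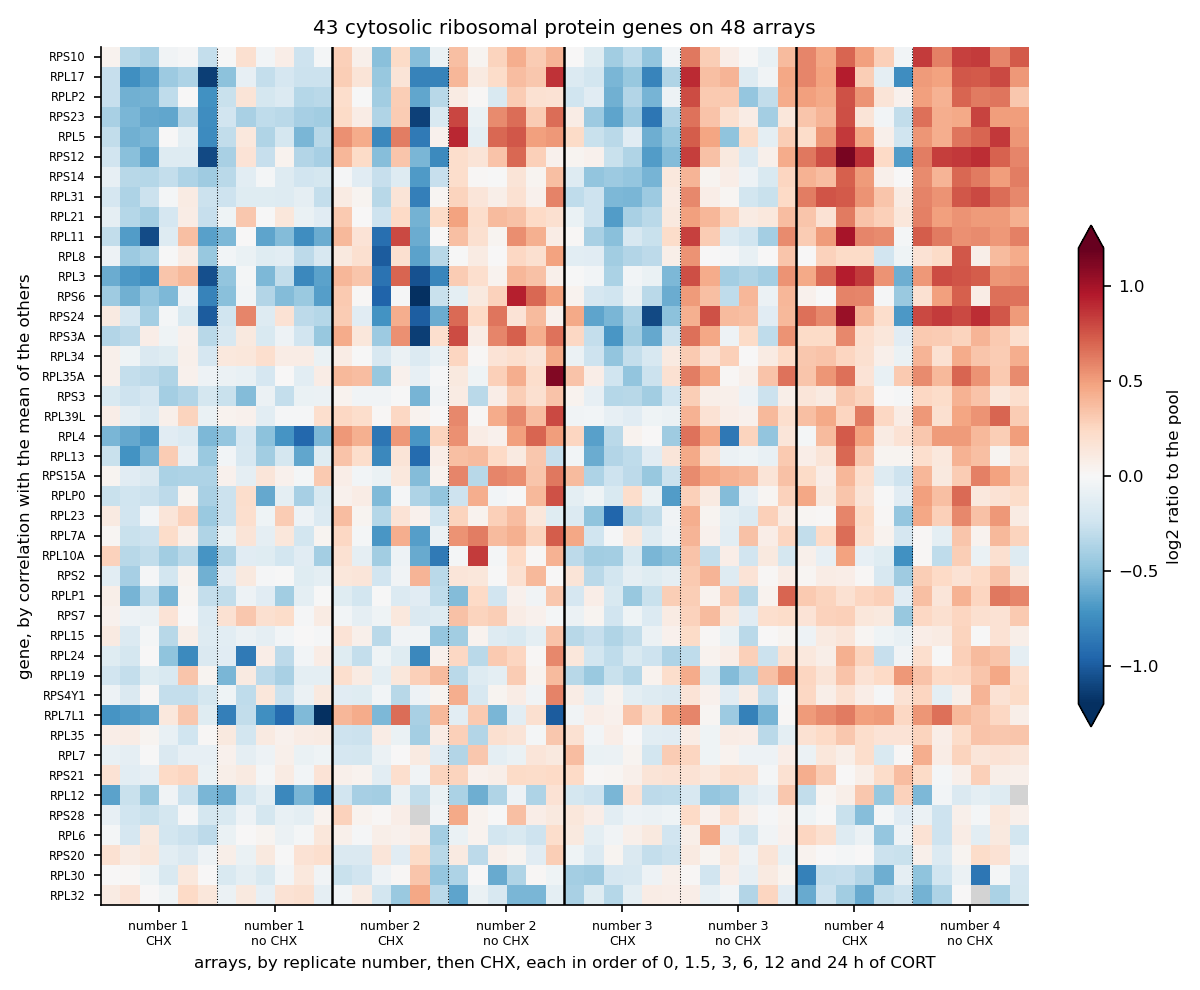
Log2 ratio to the pool of the 43 genes (down) on 48 arrays (across), ordered by replicate number, then CHX, then hours of CORT, with genes sorted by their correlation with the mean of the others. Grey cells have no value. Most genes are blue on number 1 and red on number 4, and the averages for RPL30 and RPL32 at the bottom run the other way. The RPL30 spot that passed the filter alone runs with the set (r = 0.51).

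Replicate number was tested in a model that also held the treatment group, with limma's moderated F-test. It was called for 35 of 43 genes (81.4%), against a background of 74.2% of all features tested, so the share lies near that of the array as a whole. Of all 43 genes, called or not, 35 were lowest on number 1 and 36 were highest on number 4. Of the 35 called genes, 30 were lowest on number 1, 32 were highest on number 4, and 29 were both. The calls use the same values and the genes correlate, so these counts are not separate agreements. The matching share over all features is not given. The count was 23 without number 1 (33.1% of features), 18 without number 4 (60.1%) and 19 with the leading axis as a covariate (40.1%).

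RPS14, a platform protein of the small subunit, had the smallest p (adjusted p = 3.2e-09). Its lowest, median and highest values were 0.01, 0.50 and 0.72 on the 12 arrays numbered 4, against -0.43, -0.26 and -0.03 on those numbered 1. The ranges did not overlap, and the share of all features without overlap is not given. RPS10 (adjusted p = 3.72e-08) had medians of 0.60 on number 4 and -0.03 on number 1, with ranges that overlapped slightly. RPL31, which lies at the tunnel exit, had medians of 0.61 and -0.18 on numbers 4 and 1 (adjusted p = 1.33e-07). RPS12, RPS23 and RPL17 completed the 6 smallest p-values, with number 4 minus number 1 at 0.95, 0.84 and 0.87.

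RPL11 and RPL5, which with 5S rRNA form the particle that can bind MDM2, were both called for number (adjusted p = 4.16e-06 and 3.08e-05). RPL11 showed the widest gap between numbers 4 and 1 on averages of all spots, at 1.00. The next by p were RPL7L1, RPS3 and RPLP2, whose gaps were 0.95, 0.44 and 0.77. RPL7L1 is a relative of RPL7 known in mammals from pre-ribosomes of the nucleolus. Among the stalk proteins, RPLP0 and RPLP1 had gaps of 0.48 and 0.52 and were also called. Their spots that passed the filter alone had gaps of 0.94 and 0.87.

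Some genes went otherwise. RPL32 was lower on number 4 (median -0.37) than on number 1 (median 0.11), a gap of -0.42 that passed the test (adjusted p = 0.000181), and RPL30 had a gap of -0.31 as an average of its spots (adjusted p = 0.00658). The RPL30 spot that passed the filter had a gap of 0.24 in the other direction (adjusted p = 0.0427). On averages, the 8 genes not called for number were RPL6, RPL7, RPL7A, RPL10A, RPL15, RPS7, RPS20 and RPS21, with gaps from -0.06 in RPS20 to 0.22 in RPL10A. With spots taken singly, 6 of the 8 had a tested spot called for number, and RPL7 and RPL10A had none. Of the 12 tested spots of the 8 genes, 9 were called, near the share of 74.9% over all probes. In RPL15 the tested spots had adjusted p of 6.49e-09 and 0.000368 and correlated with the other genes at 0.93 and -0.43.

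Of the total sum of squares of the mean of the 43 genes, 27.1% went with treatment group, 44.2% with replicate number and 28.7% with neither. An even share per degree of freedom would be 23.4% for group and 6.38% for number. For single genes complete on 48 arrays (40), the medians were 29.4% with group and 28.8% with number, against 25.6% and 26.8% over all 8883 complete features. The range over genes was 10.5% in RPL7 to 62.1% in RPS15A for group, and 3.08% in RPL6 to 58.0% in RPL31 for number. Number took more than group in 20 of the 40.

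**Figure D3:**
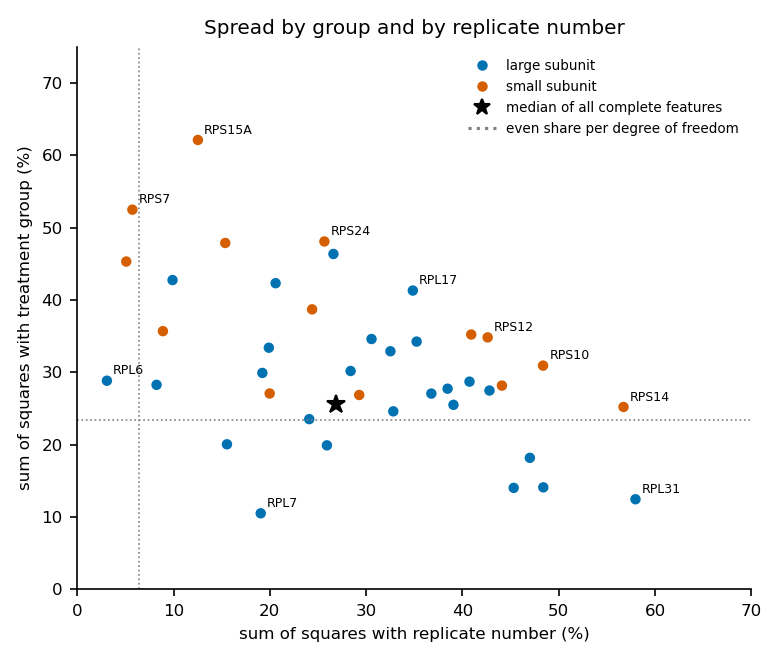
Share of each gene's sum of squares that went with replicate number (x axis) and with treatment group (y axis), in percent, for the 40 genes complete on 48 arrays. The star marks the medians over 8883 complete features, 26.8% for number and 25.6% for group. RPS15A and RPS7 stand high on group, and RPL31 and RPS14 far right on number.

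Whether a gene differed among any of the 12 groups was asked with a moderated F-test. It called 3 of 43 genes (6.98%), against 8.37% of all features, and 19 of 43 with replicate number as a block, against 22.3%. The share without the block was thus near the background, and with the block it was 44.2%. The count of 3 was 0 without the arrays numbered 2 (3.43% of features) or without those numbered 3 (1.84%). It was 7 without CORT 3 h after CHX replicate 4 and 5 without untreated replicate 1. It was 1 without CORT 1.5 h replicate 1 or 3, CORT 12 h after CHX replicate 3, or CORT 24 h after CHX replicate 1, 2 or 4. Shares of all features are not given for single arrays left out. These counts therefore do not set the genes against the rest of the array.

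RPS15A, a small-subunit protein, was the first of the 3 (adjusted p = 0.00128). Along 0, 1.5, 3, 6, 12 and 24 h of CORT its group means after CHX were 0.18, -0.11, -0.03, -0.09, -0.38 and -0.21, and without CHX they were 0.40, 0.04, 0.37, 0.40, 0.24 and 0.40. RPS24 (adjusted p = 0.0348) had means of 0.38, -0.10, -0.16, 0.11, -0.51 and -0.69 after CHX, against 0.41, 0.61, 0.41, 0.40, 0.17 and 0.15 without it. RPS7 (adjusted p = 0.0417) kept within -0.17 and 0.09 after CHX and within 0.09 and 0.29 without it. RPS24 and RPS7 are both mutated in some cases of Diamond-Blackfan anaemia in humans. The means after CHX lay below those without it in every duration for RPS15A and RPS24, and at all durations but 6 h for RPS7.

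Of the treatment comparisons, the one between the CHX and the no-CHX arm, averaged over the 6 durations, called the most genes of the set. In the CHX arm 19 of 43 genes (44.2%) were lower and 0 higher (1 at an unadjusted p under 0.05, RPL7L1, by limma). Of all features, 20.1% were called, 10.2% lower and 9.92% higher. Called or not, 39 of the 43 genes had differences below 0, with a median difference of -0.20, whereas over all features 43.3% were below 0 and the median was 0.02. The mean of the 43 genes was -0.08 ± 0.23 in the CHX arm and 0.12 ± 0.21 without CHX (SD, n = 24 each), and the arms overlapped. The p-values are adjusted limma values over all features. A lower ratio here is relative to the other features of the array. Bulk samples cannot tell a change in RNA per cell from a change in the mix of cells. Neither these nor other readings were tested.

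Small-subunit genes made up 11 of the 19, of 15 tested, and large-subunit genes the other 8, of 28 tested, a difference between subunits that was not tested. RPS15A had lowest, median and highest values of -0.52, -0.14 and 0.40 in the CHX arm, against -0.33, 0.34 and 0.63 without CHX. The difference was -0.41 (SE 0.07, adjusted p = 1.14e-05). RPS24 had -1.08, -0.19 and 1.03 in the CHX arm and -0.35, 0.38 and 0.88 without it, a difference of -0.52 (SE 0.13, adjusted p = 0.00219). The medians of both were apart, and the ranges overlapped.

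RPS7 (-0.20), RPS2 at the messenger entry (-0.22) and RPS23 of the decoding centre (-0.45) were also called, with adjusted p of 0.000623, 0.00308 and 0.00769. RPS10 fell by 0.33 on the log2 scale (adjusted p = 0.0138). RPS6, the substrate of the S6 kinases, had lowest, median and highest values of -1.43, -0.22 and 0.60 in the CHX arm, against -0.66, 0.23 and 0.93 without CHX (difference -0.41, SE 0.13, adjusted p = 0.0259). RPS12, RPS14, RPS3A and RPS20 were called with differences of -0.37, -0.29, -0.31 and -0.12. The calls of RPS6 and RPS3A rest on averages with spots that did not pass the filter alone. The RPS3A average holds a spot with exact zeros on 22 arrays and no other value, and the other spot alone had a difference of -0.37 (adjusted p = 0.0609). The RPS6 spot that passed had -0.39 (adjusted p = 0.115).

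In the large subunit, RPL17 differed most. Its lowest, median and highest values were -1.13, -0.37 and 0.94 in the CHX arm, against -0.49, 0.36 and 0.89 without CHX (difference -0.52, SE 0.13, adjusted p = 0.00244). RPL34, an average of spots that differ, was lower by a smaller amount with a smaller SE (-0.25, SE 0.05, adjusted p = 0.000435). Taken singly, its spots had differences of -0.47, -0.19 and -0.10 (SE 0.13, 0.04 and 0.04). Their adjusted p by limma were 0.00556, 0.00142 and 0.0689, and they correlated with the other genes at 0.90, 0.45 and 0.09. RPL21 (-0.33) and RPL10A, of the stalk that guides the exit of transfer RNA (-0.27), followed at adjusted p of 0.00345 and 0.0146. RPL39L, a paralog of the tunnel protein RPL39, was called at -0.19, and RPL8, RPL23 and RPL35A at -0.27, -0.24 and -0.25.

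The remaining defined members stayed short of the threshold. RPL5 had a difference of -0.35 (95% confidence interval -0.62 to -0.08, adjusted p = 0.0623) and its partner RPL11 one of -0.16 (-0.47 to 0.14, adjusted p = 0.52). The stalk proteins RPLP0, RPLP1 and RPLP2 had differences of -0.20, -0.18 and -0.27 at adjusted p of 0.115, 0.135 and 0.101. The RPLP0 and RPLP1 averages hold spots that did not pass the filter alone. Their spots that passed had differences of -0.42 and -0.28 (adjusted p = 0.057 and 0.133, limma). RPL12, RPL32 and RPL19 had differences just above 0, at 0.06, 0.03 and 0.01.

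RPL7L1 had the largest difference above 0. Its lowest, median and highest values were -0.71, 0.29 and 0.67 in the CHX arm, against -1.27, -0.13 and 0.66 without CHX. The difference of 0.34 (SE 0.14) had an adjusted p of 0.0843, and of 0.00457 with replicate number as a block. It was above 0 within each replicate number, at 0.48, 0.38, 0.38 and 0.12 for numbers 1 to 4.

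With replicate number as an additive block, the spread that goes with number left the error. The count in the CHX contrast was then 30, of which 29 were lower (67.4%, against 15.3% of features) and 1, RPL7L1, was higher (against 16.1% of features). In either direction the fit with the block called 31.4% of features. All 19 genes called without the block were called with it. The 10 further lower genes were RPL5, RPL7A, RPL24, RPL31, RPLP0, RPLP1, RPLP2, RPS3, RPS4Y1 and RPS28, so the 3 stalk proteins were called here.

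**Figure D4:**
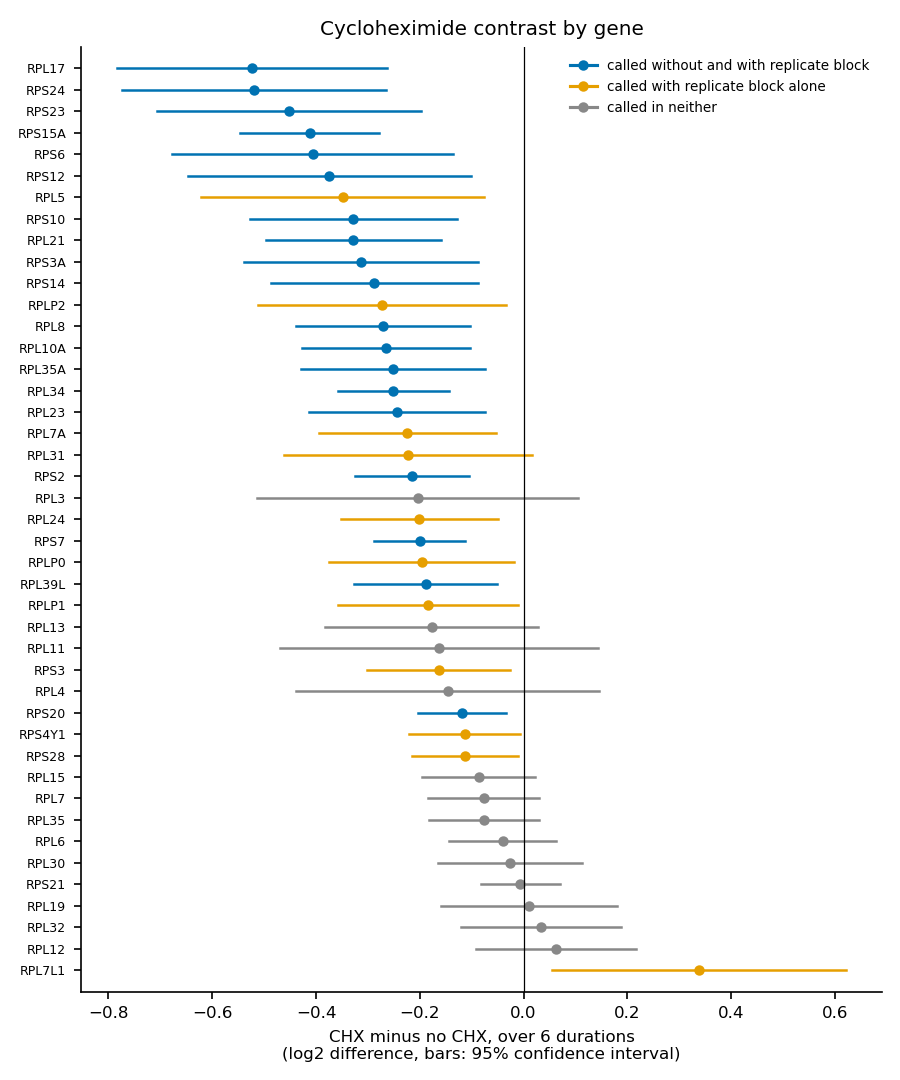
Difference between the CHX and the no-CHX arm over 6 durations for each of the 43 genes (log2, CHX minus no CHX), with 95% confidence intervals from the fit without block. Blue genes were called without and with replicate number as a block (19), orange ones with the block alone (11), and grey ones in neither (13).

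The contrast was also taken within each replicate number. The mean of the 43 genes was lower in the CHX arm by 0.06, 0.28, 0.30 and 0.15 for numbers 1 to 4 (differences of -0.06, -0.28, -0.30 and -0.15). Below 0 were 33, 37, 40 and 39 of the 43 genes, against 55%, 45.6%, 41.9% and 45.1% of all features. In all 4 numbers 28 (65.1%) were below 0, against 19.5% of all features. Of the 19 called genes, 18 were below 0 in all 4, which is no separate support because the calls came from the same arrays.

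The count of called genes rested on some numbers more than on others. Without the block it was 22 without number 1, 7 without number 2, 3 without number 3 and 18 without number 4, where 23.4%, 13.2%, 9.1% and 15.7% of all features were called in either direction. Without number 3 the members' share was 6.98%, and without number 2 it was 16.3%. Leaving out any single array gave 12 to 24 calls, with 12 without CORT 12 h replicate 4, CORT 3 h after CHX replicate 3 or CORT 6 h after CHX replicate 3. The matching shares of all features are not given for single arrays. With the block, an alternative chosen after seeing the data, leaving out numbers 1 to 4 in turn gave 27, 22, 15 and 24, against 29.1%, 24.4%, 20.4% and 23.9% of features. RPS15A, RPL34 and RPS7 kept their calls without any 1 number, and RPL17, RPS23 and RPL10A lost theirs without number 2 or 3 (adjusted p of 0.0527 to 0.166). RPS24 lost its call without number 3 (adjusted p = 0.0931) and kept it without number 2.

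Along 0, 1.5, 3, 6, 12 and 24 h of CORT, the mean difference between the CHX and the no-CHX arm over the 43 genes was -0.12, -0.17, -0.21, -0.09, -0.24 and -0.36. Of the 43 genes, 36, 34, 38, 31, 37 and 39 were below 0 at these durations. Of all features, 51.2%, 46.4%, 43.1%, 54.4%, 46.4% and 41.3% were. An F-test over 5 interaction contrasts asked if CHX altered the differences between CORT and 0 h, and limma called 0 of 43 genes and 0% of all features. No gene of the set, and 528 features, had an unadjusted p under 0.05 there. The single contrast of CHX alone with untreated, before any CORT, called 0 of the 43 (1 at an unadjusted p under 0.05, RPS7), against 0.0178% of features, and the median difference was -0.12.

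CORT without CHX moved no gene of the set past the threshold. At 1.5, 3, 6, 12 and 24 h, limma called 0 of 43 genes each time, with 4, 0, 0, 0 and 1 at an unadjusted p under 0.05. Of all features, 0%, 0.0268%, 0.0982%, 0.0178% and 0.0178% were called. The median difference from untreated over the 43 genes was -0.06, -0.07, -0.08, -0.12 and -0.02 at these durations, and the median SE of a single gene was 0.20. The replicate block left all 5 counts at 0, with 6, 0, 0, 4 and 3 at an unadjusted p under 0.05, while 0.0446%, 0.0357%, 0.116%, 0.0178% and 0.0446% of features were called. Averaged over the 5 durations, limma called 0 genes of the set (0 at an unadjusted p under 0.05) and 0.0803% of features. The 5 comparisons share the 4 untreated arrays, whose mean over the 43 genes ran from -0.20 to 0.40.

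After CHX, a single gene of the set passed in the comparisons of CORT with CHX alone. At 1.5, 3, 6 and 12 h limma called 0 of 43 genes, with 0, 1, 1 and 6 at an unadjusted p under 0.05, and at 24 h it called 1, with 10. The share of all features called was 0.0178%, 0.0268%, 1.15%, 1.12% and 2.24% at these durations. The median difference over the 43 genes was -0.11, -0.21, -0.07, -0.23 and -0.18, and 37, 37, 30, 37 and 37 genes were below 0. Of all features, 48.1%, 43.2%, 50.9%, 45% and 39.6% were below 0. The 5 comparisons share the 4 arrays of CHX alone.

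At 24 h, the 1 gene called was 2.33% of the set, near the 2.24% of all features. The gene was RPL10A. Its values were -0.71, -0.84, -0.50 and -0.72 after 24 h of CORT following CHX, against 0.27, 0.19, -0.32 and 0.06 in CHX alone. The groups did not overlap (difference -0.74, SE 0.20, adjusted p = 0.03 by limma). RPL10A was picked by its p on these same values, and the share of all features without overlap is not given. The call was lost without CHX alone replicate 2 or 4, or without CORT 24 h after CHX replicate 1, 2 or 4, and there were 2 calls without CORT 24 h after CHX replicate 3. Shares of all features are not given for these single arrays. In cells without CHX, RPL10A had values of -0.40, 0.42, -0.21 and -0.15 at 24 h of CORT and -0.37, -0.03, 0.34 and 0.01 in untreated cells.

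RPS24 had the second smallest p at 24 h. Its values were -0.996, -0.59, -0.49 and -0.69 after 24 h of CORT following CHX, against 0.11, 0.31, 0.45 and 0.66 in CHX alone. These groups did not overlap either, again in a gene picked by its p and without a share of all features. The difference of -1.08 (SE 0.31) stood at an adjusted p of 0.0525 by limma, or 0.002 with the block. With the block, 5 genes were called at 24 h (11.6%, against 6.72% of features), RPL10A, RPL17, RPS2, RPS12 and RPS24, all lower. At 12 h 5 were called with it (11.6%, against 4.88%), RPL24, RPS14, RPS15A, RPS23 and RPS24, again all lower. Averaged over all CORT durations after CHX, limma called 0 genes without the block (3 at an unadjusted p under 0.05), against 0.946% of features. With the block it called 1, RPS24 (difference -0.65, adjusted p = 0.0254), against 3.53%.

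Several genes were measured by more than 1 spot, and the spots did not always move alike. Of the 46 genes, 26 had 2 or 3 probes, which gave 31 pairs with enough values for a correlation over arrays. Their median correlation was 0.11, with a range of -0.68 to 0.97, and 14 pairs in 12 genes were below 0. The 12 genes were RPL6, RPL7, RPL7A, RPL8, RPL15, RPL21, RPL30, RPLP0, RPS6, RPS7, RPS20 and RPS21.

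RPL21 shows the pattern with 3 spots. A pair of spots correlated at 0.97 with each other, and had differences of -0.52 and -0.53 between the CHX and the no-CHX arm (adjusted p = 0.00379 and 0.00594). The third correlated with them at -0.67 and -0.68, with a difference of 0.07 (adjusted p = 0.354). In RPS20, 1 spot had a difference of -0.26 (adjusted p = 0.00222) and the other one of 0.02, and in RPS7 the tested spots had -0.39 (adjusted p = 0.00135) and 0.00. The average of spots was therefore nearer to 0 than both spots of the pair in RPL21, and than 1 of the tested spots in RPS20 and in RPS7. Conversely, both spots of RPL3 (r = 0.97), RPL5 (0.93), RPL7L1 (0.92), RPS14 (0.90) and RPS10 (0.88) moved together. Both spots of RPL30, of RPS21 and of RPS2 are annotated to the same sequence record, and they correlated at -0.18, -0.09 and 0.09. What sequence each spot holds was not tested.

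When each spot was tested singly, 60 spots of the set passed the filter. Between the CHX and the no-CHX arm 50 of the 60 had a difference below 0, 22 in 19 genes were called lower, and 0 were called higher by limma, against 10.1% and 9.28% of all probes. These 19 genes are not all the same as the 19 called on averages. RPL5, in 1 of its spots, and RPL7A came in (adjusted p = 0.0468 and 0.00268 by limma). RPS3A and RPS6 fell out (adjusted p = 0.0627 and 0.118). For replicate number, 54 of 60 spots were called, against 74.9% of all probes. In 11 genes the average held a spot that did not pass the filter alone. When such spots were left out of the averages, an alternative chosen after seeing the data, 18 genes were lower in the CHX arm (10.2% of features) and 38 were called for number. The share of features called for number is not given for these averages, and it was 74.2% on averages of all spots. Of the 18, 17 were called on averages of all spots and the other was RPL7A (-0.50, adjusted p = 0.00259), while RPS3A and RPS6 fell short.

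**Figure D5:**
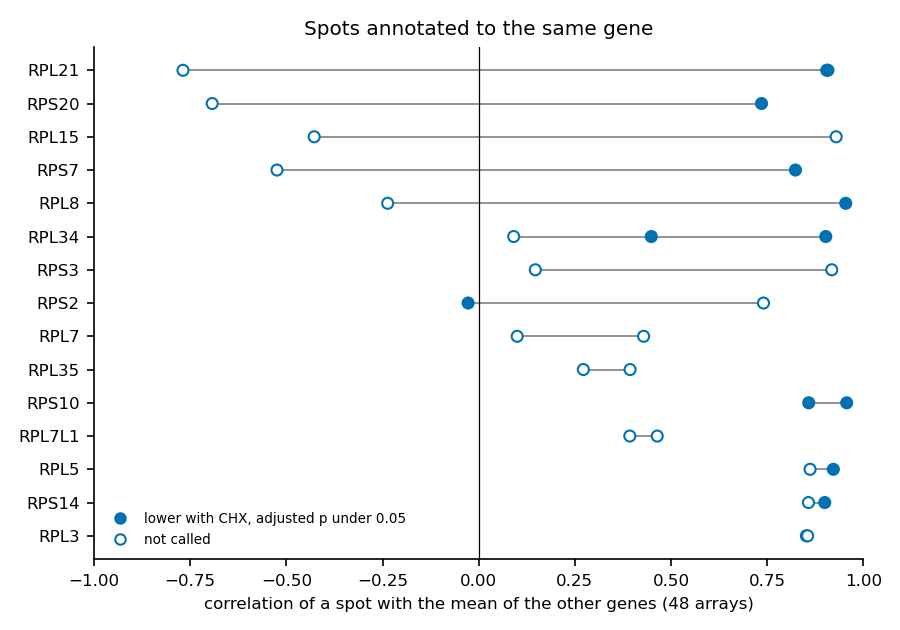
Pearson correlation of each tested spot with the mean of the other genes over up to 48 arrays, for the 15 genes with 2 or more tested spots. Filled points had an adjusted p under 0.05 and were lower in the CHX arm. In 6 of the 15 genes 1 spot lies below 0 and another above it.

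Other genes whose messenger RNAs are known for a TOP tract were also lower in part in the CHX contrast. Of 14 such genes 6 were called, all lower (10.2% of all features were called lower), and 13 were below 0 (43.3% of all features), with a median difference of -0.14. EEF1D and EEF1B2, which exchange the nucleotide on elongation factor 1A, had differences of -0.71 and -0.41 (adjusted p = 2.57e-05 and 0.00114). PABPC1, the poly(A)-binding protein, had -0.37 and TPT1 had -0.22 (adjusted p = 0.0023 and 0.00157). EEF2, the translocase, had -0.03 at an adjusted p of 0.913. The list follows replicate number too, with means of -0.25, 0.08, 0.01 and 0.29 for numbers 1 to 4.

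Ribosome assembly factors differed in direction, with 9 of 25 higher, 2 lower and a median difference of 0.05, against 9.92% higher and 10.2% lower among all features. NOP56, of the box C/D particle that methylates ribosomal RNA, was higher after CHX (0.68, adjusted p = 0.00113), as was NOC3L (0.60, adjusted p = 6.42e-07), while the helicase DDX18 was lower (-0.55, adjusted p = 0.00363). Mitochondrial ribosomal proteins had 3 of 31 higher and 4 lower, with a median of 0.00, and means of -0.03, -0.03, -0.03 and 0.01 over numbers 1 to 4. Among 29 translation factors, several of which are also on the TOP list, 3 were higher and 5 lower. Oxidative phosphorylation and proteasome genes had 4 of 42 and 3 of 26 called, shares below the 20.1% of all features. Over numbers 1 to 4, translation factors averaged -0.22, 0.07, -0.02 and 0.20, and assembly factors -0.08, -0.02, -0.03 and 0.03. Oxidative phosphorylation genes averaged -0.12, 0.02, -0.01 and 0.16, and proteasome genes -0.14, 0.04, -0.02 and 0.16. Translation factors, assembly factors, oxidative phosphorylation and proteasome genes thus ran in the same order of numbers as the cytosolic ribosomal genes. Mitochondrial ribosomal proteins did not.

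The named genes outside the set whose pattern over 48 arrays was most like the mean of the 43 genes were FERMT1 (r = 0.96), TMEM87B (0.95), NME2 (0.95), H2AFZ (0.94), GAPDH (0.94), SS18L2 (0.94), CHSY3 (0.94), DAD1 (0.94), DNTTIP1 (0.94) and CYP20A1 (0.93). The lowest were CCDC17 (-0.89), LIN52 (-0.89), ARHGAP20 (-0.88), MRPS31 (-0.88) and CTSZ (-0.88). These correlations carry group, replicate number and the array axis together.

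Markers of pituitary and of other cells were counted in the CHX contrast, where most lists of other cells had no call without the block. Between the CHX and the no-CHX arm, 5 of 11 pituitary markers were called, against 20.1% of all features. TSHB (-0.92), CHGA (-0.71), PCSK1 (-0.25) and POU1F1 (-0.22) were lower and SCG2 (0.13) was higher. The list as a whole went both ways, with 6 of 11 below 0 and a median of -0.01, and GH, PRL, POMC and FSHB had differences of -0.04, 0.11, 0.02 and 0.05 at adjusted p of 0.6 to 0.899. Of 10 neuron and glia markers 3 were called, all lower, with a median of -0.05. The mean of the pituitary list ranged over -0.23 to 0.06 in the CHX arm and -0.12 to 0.26 without CHX, and that of neurons and glia over -0.43 to 0.18 and -0.12 to 0.26. Limma called 0 of 11 fibroblast, 4 red blood cell, 7 endothelial, 5 immune and 6 cartilage and muscle markers, with 1, 3, 1, 1 and 2 at an unadjusted p under 0.05. With replicate number as a block it called 3 of the 4 red blood cell markers higher, 3 of the 11 fibroblast markers lower, 1 endothelial marker higher, 1 immune marker lower and 0 of the 6 cartilage and muscle markers (31.4% of features). It then called 5 pituitary markers, 4 of them lower, and 4 neuron and glia markers, all lower.

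The marker lists also differed over replicate number. For numbers 1 to 4, red blood cell markers averaged 0.13, -0.15, -0.04 and -0.04, and fibroblast markers -0.13, -0.06, 0.13 and 0.08. Neuron and glia markers averaged -0.14, -0.07, -0.07 and 0.06, and pituitary markers 0.04, 0.05, 0.02 and -0.08. Endothelial markers averaged 0.06, -0.08, -0.03 and -0.11, immune cell markers 0.08, -0.09, -0.06 and -0.08, and cartilage and muscle markers 0.09, -0.03, 0.05 and -0.08. All of these means lay nearer to 0 than the mean of the ribosomal genes on numbers 1 and 4. On a ratio scale no marker can be said to be absent, and the part of these cells in the values of the ribosomal genes was not tested.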

How the data were processed

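The deposited values were log2 ratios, 1 per probe and array (19200 probes, 48 arrays), and the sources used here do not give the authors' background correction, normalisation or software. Per the labels' protocols, amplified antisense RNA of each sample (Cy3) was hybridised with a pool of all samples (Cy5) on a cDNA array. The base of the logarithm is read from the values (632 of 739065 nonzero values matched log2 of ratios below 200 to 8 decimals, with 77 and 127 matches for ln and log10). Most label protocols split the pool over as many slides as samples, those of the untreated samples over fewer, which was not resolved. Any difference in the pool would coincide with the untreated group and its comparisons. No spot intensities were used, so depth and signal over background are unknown and the number of arrays limits precision. Exact zeros were 2.34% of values.

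Probes were averaged by symbol, from GEO's platform annotation (10601 probes with 1 symbol, 0 with several, 8599 with none, kept singly). All 46 member identifiers were in the current RefSeq table (GRCg7b), and no coordinates are given because the annotation names no build. Features needed values on 3 of 4 arrays per group (11207 kept, 0.866% of values missing). limma 3.58.1 in R 4.3.3 fitted all 48 arrays with group means (36 residual degrees of freedom), two-sided, with Benjamini-Hochberg adjustment over all features and a threshold of 0.05. With the block or covariate, errors of the 3 genes with missing values are approximate. Alternatives covered the block, the leading axis, array weights, scaling, filters on genes and on spots, zeros, single probes and left-out arrays. Code was tested on simulated data.

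Members and gene lists were chosen with earlier results of these data known. Genes were named by rule: up to 10 called per comparison by p, the 6 smallest p-values of the main tests, stalk, 5S and paralog members, RPS6, the 3 highest and 3 lowest correlations with the other members, members whose probes correlate below 0, and the 10 most and 5 least similar other genes. Others named were chosen after their values were seen.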

Additional observations from a re-analysis of the deposited data

Results flagged for a closer look

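In 50 sets of 4 values, the gap of the highest or lowest array to its neighbour was marked where it passed Dixon's critical share of the range. The sets were the 12 groups for the mean of the 43 genes and for RPS15A, RPS24 and RPS7. For RPL10A they were CHX alone and CORT 24 h after CHX. These genes were taken because they were called, and the sets share arrays. Chance marks about 1 in 20 separate sets, and 4 of the 50 were marked, which are not separate. In CORT 3 h after CHX, replicate 4 had a mean of the 43 genes of 0.43, while replicates 1 to 3 had -0.28, -0.35 and -0.31. Without that array, the F-test over groups called 7 genes where it called 3, and the share of all features without it is not given. In CORT 24 h without CHX, replicate 1 had a mean of -0.18, against 0.31, 0.24 and 0.29 in replicates 2 to 4. Both arrays lie on the side of 0 where their replicate number lay as a whole. RPS15A stood at 0.63 on replicate 2 of CORT 24 h, against 0.31, 0.36 and 0.30 on replicates 1, 3 and 4. RPS7 stood at -0.049 on replicate 3 of CORT 6 h after CHX, against 0.16, 0.13 and 0.14 on replicates 1, 2 and 4. What set these arrays apart was not tested.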

How the results depend on the processing

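No direction reversed on gene averages for the mean of the genes or the CHX differences of 8 genes. The 8 were RPL17, RPS24, RPS23, RPS15A, RPL34, RPS7, RPL10A and RPL7L1. Counts have no direction, so a reversal could not be recorded for them. The block and the leading axis are balanced over groups, so they leave the 8 differences as they are by design. Of 284 alternative values other than those that left out arrays, 248 were rated the same. For counts this meant within 1.5 times the main count, and for the 8 genes the same direction and call. For the mean of the genes it meant the same direction and a change smaller than an SD. Counts of 0 that stayed 0 are among the 248. Single spots of 5 genes lay on the other side of 0 from their average in the CHX contrast, 3 of them in called genes, RPL21 (0.07 against -0.33), RPS20 (0.02 against -0.12) and RPS7 (0.00 against -0.20). The cause of the other changes was not tested. With a replicate block, the counts of genes called were 19 for the F-test over groups (3 without), 30 for CHX against no CHX (19), 5 at 12 h and 5 at 24 h of CORT after CHX (0 and 1), and 1 for CORT of any duration after CHX (0). The block called 22.3%, 31.4%, 4.88%, 6.72% and 3.53% of features in these tests, in this order. Deviations from the group means correlated at a median of 0.44 between arrays of equal number and -0.10 otherwise. All 4 pairs exceeded 0.1 in 3 of 11 comparisons alone. Level thus went in part with number, without the numbers being shown to pair cultures. The leading axis was taken from the within-group residuals of these same arrays, so it lowers the error of the treatment tests by construction. More calls with it are therefore no separate support. The leading axis as a covariate gave 28 for the F-test over groups (34.1% of features) and 32 for CHX against no CHX (33.9%). After CHX it gave 9 at 12 h (7.41%) and 11 at 24 h (9.69%). At 3 h it gave 2 (3.64%), at 6 h 1 (4.85%) and for any duration 4 (5.74%). The interaction then had 3 (2.2%) and replicate number 19 (40.1%), where the main fit had 35 for number. Block and axis together gave 35, 33, 13, 13, 7, 2, 7 and 4, and 1 at CORT 12 h without CHX. Array weights gave 36, 31, 2, 5, 10 at 3 h and 1 for any duration. At 24 h after CHX, quantile normalisation gave 2, median and MAD scaling 2 and the 2 groups alone 3, and median and MAD scaling gave 5 for the F-test over groups. For block and axis together, array weights, both scalings, the 2 groups alone and single arrays left out, shares of all features are not given. Those counts therefore do not set the genes against the rest of the array. Leaving out arrays gave 0 to 7 for the F-test over groups, 18 to 37 for replicate number, 0 to 2 at 24 h after CHX and 3 to 24 for CHX against no CHX. The mean difference of the 43 genes between the CHX and the no-CHX arm ranged from -0.25 to -0.17. Precision is limited by 4 arrays a group.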
